A study of Homo sapiens with 12 samples.

Results

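The genes described here encode the sterol regulatory element-binding proteins (SREBPs) and the proteins that hold, carry and cut them. They were the 6 genes SREBF1, SREBF2, SCAP, INSIG2, MBTPS1 and MBTPS2, chosen by name from the 26364 genes of the count table, and all 6 passed the filter on low counts, as did 13852 genes in all. The study followed HepG2, a human liver cancer cell line, by RNA-seq at 0, 5, 10, 30 and 240 min after insulin was added, in 10 libraries, 2 for each time. According to the labels, every RNA library came from unmodified cells grown in EMEM with serum, kept in EMEM for 16 h and then given EMEM with BSA and 3 nM insulin. The protocol text names 5 min for every library, the 0 min libraries included, so the times used here are those in the sample titles. The series held no library kept to 240 min without insulin, so insulin, the change of medium and elapsed time cannot be told apart. The labels do not name separate cultures, and the study's methods describe 1 RNA-seq experiment on independent samples, so each p-value measures the spread between libraries of that experiment. One further library was a ChIP-seq with an antibody to the insulin receptor (IR), from HepG2 cells that had been kept in EMEM for 2 days and in insulin with BSA for 2 days, washed out for 30 min and stimulated with 3 nM insulin. A ChIP input library was also listed, but no data of it were available here, so the peaks were not compared with it. The RNA-seq and the ChIP-seq both used 1 line, so neither gives a spread over donors.

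SREBPs are transcription factors made as membrane proteins of the endoplasmic reticulum. SCAP, a sterol-sensing escort, binds them and carries them to the Golgi in COPII vesicles, where site-1 protease (MBTPS1) and site-2 protease (MBTPS2) release the part that enters the nucleus. INSIG proteins bind SCAP and retain the complex in the endoplasmic reticulum when sterols are plentiful. SREBF1 gives SREBP-1a and SREBP-1c, which start at different first exons, and SREBP-1c is known in liver as a driver of fatty acid synthesis that responds to insulin. SREBF2 gives SREBP-2, which mainly drives cholesterol synthesis and uptake. In rodent liver a transcript of INSIG2 is known to be lowered by insulin.

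Reads counted on genes numbered from 18347109 to 45005769 per library. The liver markers were high in all 10 libraries, with ALB at 13892 to 20349 and HNF4A at 346 to 473 CPM (counts scaled to library size). Of 5 markers of other cells, PTPRC had 0 reads in every library and KRT7 had at most 8, while PECAM1 and COL1A1 stayed at or under 3.00 CPM and ACTA2 lay between 42.3 and 65.5 CPM. Of the 8 liver and 5 other markers, HNF4A was higher in both 240 min libraries (473 and 469 CPM) than in all 8 earlier ones (up to 394 CPM), and ACTA2 was lower (42.3 and 46.2 CPM, against 51.4 CPM or more). The other markers above 0 overlapped, and the part of these shifts in the results at 240 min was not tested. SREBP target genes were higher in the first than in the second 0 min replicate for 26 of 27 genes tested, a spread within the reference group that enters every comparison with 0 min.

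The DNA before the start sites is shown first, because SREBF1 was the single gene of the 6 with an IR peak and because INSIG2 and SREBF2 are the members set against it below. Each line holds 250 bases before a start, 5′ to 3′ on the strand of the gene, with 5 motifs in capitals wherever they were found on either strand: TCACNCCAC (the core of a sterol regulatory element, N being any base), CACGTG (an E-box), CCAAT (the box of NF-Y), GGGCGG (a GC box) and TGACGT (the core of a cAMP response element). Runs of capitals longer than 1 motif are GC boxes that overlap or touch. The sequences of the annotated starts are from RefSeq on GRCh38.p14, at chr17:17836987-17837236 for SREBF1, chr22:41832855-41833104 for SREBF2 and chr2:118088221-118088470 for INSIG2. The sequence at the start inside SREBF1 is from hg19, the build of the peak list, at chr17:17726933-17727182 on the minus strand.
SREBF1 internal start: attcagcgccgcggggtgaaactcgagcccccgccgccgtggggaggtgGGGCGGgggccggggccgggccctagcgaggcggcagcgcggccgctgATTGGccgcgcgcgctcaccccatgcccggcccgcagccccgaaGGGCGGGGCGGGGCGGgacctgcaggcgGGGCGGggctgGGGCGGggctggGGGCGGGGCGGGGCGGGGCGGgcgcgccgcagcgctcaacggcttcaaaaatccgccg
SREBF1 annotated start: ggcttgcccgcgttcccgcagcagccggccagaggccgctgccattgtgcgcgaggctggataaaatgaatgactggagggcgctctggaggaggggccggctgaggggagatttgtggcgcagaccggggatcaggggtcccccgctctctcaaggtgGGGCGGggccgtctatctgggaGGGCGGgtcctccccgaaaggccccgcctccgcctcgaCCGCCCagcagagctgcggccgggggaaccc
SREBF2: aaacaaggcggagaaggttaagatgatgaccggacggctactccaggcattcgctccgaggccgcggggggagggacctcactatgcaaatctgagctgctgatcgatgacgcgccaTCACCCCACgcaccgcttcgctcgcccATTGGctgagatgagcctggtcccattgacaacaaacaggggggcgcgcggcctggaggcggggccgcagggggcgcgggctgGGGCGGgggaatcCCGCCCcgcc
INSIG2: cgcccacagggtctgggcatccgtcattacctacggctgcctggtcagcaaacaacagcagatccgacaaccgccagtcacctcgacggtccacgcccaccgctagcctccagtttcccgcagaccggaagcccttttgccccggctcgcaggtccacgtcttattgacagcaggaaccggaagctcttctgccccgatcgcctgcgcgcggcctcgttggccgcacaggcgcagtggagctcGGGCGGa

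Of the 6 genes, SREBF2 alone held the sterol regulatory element core before its annotated start, with its first base 133 bases before the start, and an NF-Y box followed it on the other strand at 106 bases before the start. The core was found in 0.883% of 35116 RefSeq promoters of this length and the NF-Y box in 32.0%. GC boxes, found in 42.6% of the promoters, stood 3 times before SREBF1, 3 times before SCAP, 2 times before SREBF2 and 1 time before INSIG2, and the E-box, found in 6.34%, stood 1 time before SCAP. MBTPS1 and MBTPS2 held none of the 5 motifs in this window, and the cAMP core was before none of the 6 genes and in 2494 of the 35116 promoters. Motif matches are a description of the letters, and a missing match says nothing of a factor.

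INSIG2, the retention factor of the complex, showed the largest change of the 6 genes. Its normalised level was 193 and 198 CPM in the 0 min replicates, 200 and 197 CPM at 5 min, 188 and 184 CPM at 10 min and 192 and 191 CPM at 30 min. At 240 min it was 77.1 and 79.0 CPM. In these bulk libraries fewer cells with a transcript and less of it per cell cannot be told apart. The 8 libraries up to 30 min lay within a narrow band, and both 240 min libraries lay far under it with no overlap. The fall from 0 min was 2.50-fold (log2 fold change -1.32, standard error 0.047, adjusted p = 2.45e-13 by the edgeR quasi-likelihood test with Benjamini-Hochberg adjustment). By p it was number 4 of the 13852 genes tested, and by log2 fold change number 61 from the lowest. Against 5, 10 and 30 min, INSIG2 at 240 min differed by a log2 fold change of -1.34, -1.26 and -1.30. At 240 against 0 min it was also the one gene of the 6 whose call was kept under every alternative tried, spike-in scaling included, where its log2 fold change was -1.44.

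**Figure D1:**
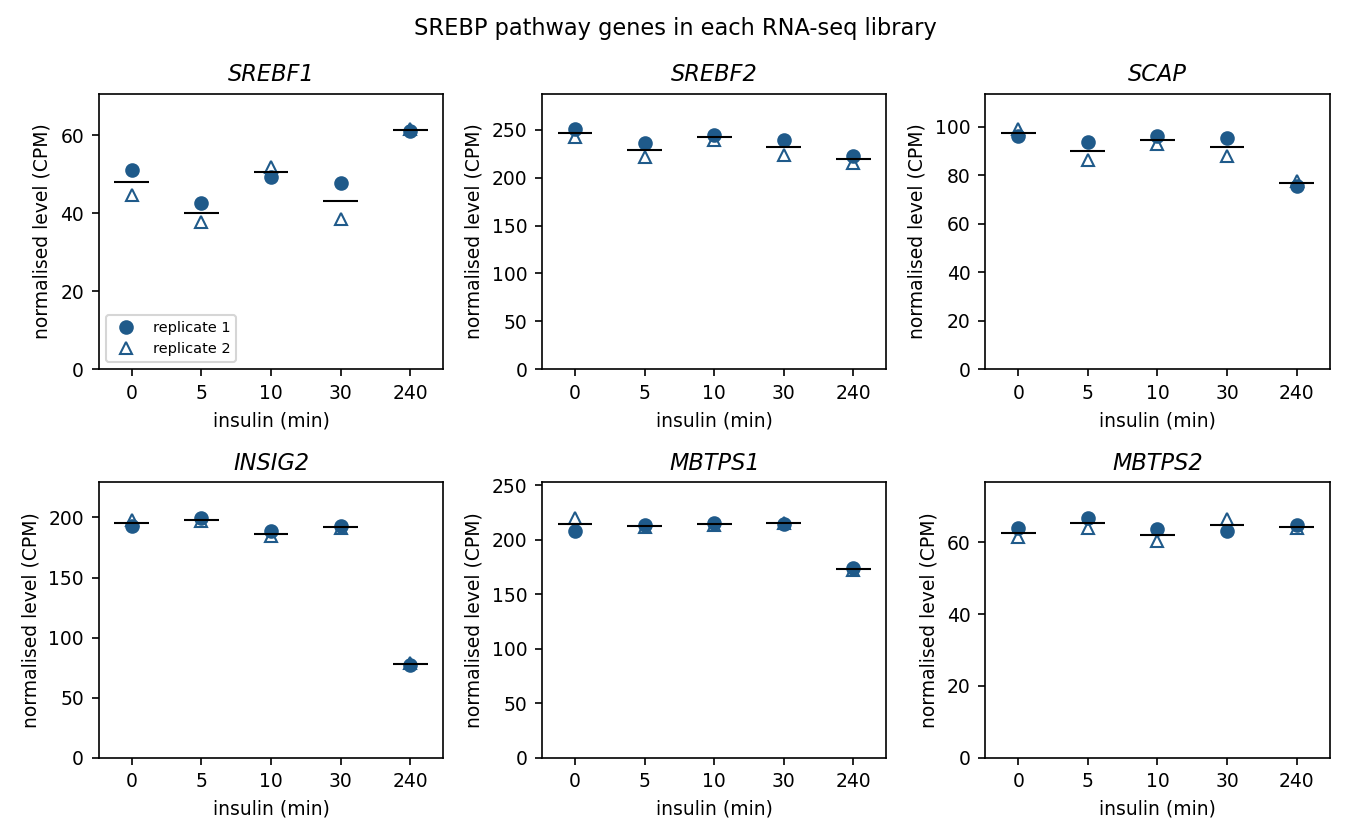
Normalised level in CPM (vertical axes, each from 0) of the 6 genes in each library at 0 to 240 min of insulin (horizontal axes, not to scale), with filled circles for replicate 1, open triangles for replicate 2 and bars for the mean of 2. INSIG2, SCAP and MBTPS1 are low in both 240 min libraries, SREBF1 is high in both, and MBTPS2 overlaps at all times.

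INSIG1, its paralog and itself known as an SREBP target, had 1 to 5 reads in each library, up to 0.225 TPM (reads scaled for gene length and library size), and did not pass the filter. Counts this low are unusual for INSIG1 in liver cells, and whether they reflect the RNA or the gene models used for counting was not tested.

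SCAP, the escort, was 96.3 and 98.8 CPM at 0 min, 93.7 and 86.2 CPM at 5 min, 96.1 and 92.7 CPM at 10 min, 95.5 and 88.1 CPM at 30 min and 75.6 and 77.6 CPM at 240 min. Both 240 min libraries lay under all 8 others. From 0 min it fell by 21.6% (log2 fold change -0.35, standard error 0.055, edgeR adjusted p = 4.61e-05).

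MBTPS1, the first protease to cut, was 208 and 220 CPM at 0 min, 214 and 212 CPM at 5 min, 216 and 213 CPM at 10 min and 215 and 216 CPM at 30 min. At 240 min it was 174 and 172 CPM, again with no overlap with any earlier library. It fell by 19.2% (log2 fold change -0.31, standard error 0.046, edgeR adjusted p = 2.65e-05). MBTPS2, the second protease, lay between 60.3 and 66.7 CPM in all 10 libraries, with 63.8 and 61.4 CPM at 0 min and 64.7 and 63.9 CPM at 240 min. The 240 min libraries lay inside the range of the earlier ones. Its log2 fold change at 240 min was 0.04 (standard error 0.054, edgeR adjusted p = 0.561). Reads of YY2, which lies inside MBTPS2 on the same strand, were few, at 2.44 to 3.68 CPM.

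Against 0 min the precursor genes moved in opposite directions at 240 min, though neither call was kept under every alternative. SREBF1 was 51.1 and 44.7 CPM at 0 min, 42.6 and 37.7 CPM at 5 min, 49.2 and 51.9 CPM at 10 min, 47.8 and 38.6 CPM at 30 min and 61.1 and 61.5 CPM at 240 min. Both 240 min libraries lay above the other 8, which spread over 37.7 to 51.9 CPM. The rise over 0 min was 1.29-fold (log2 fold change 0.37, standard error 0.083, edgeR adjusted p = 0.00146). Without the second 0 min replicate the log2 fold change was 0.26 and the edgeR adjusted p was 0.0588, so the call against 0 min rests on that library. Against 30 min the rise was 1.41-fold (edgeR adjusted p = 0.000119) and against 5 min 1.52-fold (edgeR adjusted p = 1.53e-05). Gene counts do not separate transcripts of the different first exons. RAI1 overlaps the 3′ end of SREBF1, and SREBF2-AS1 the 5′ end of SREBF2, both on the opposite strand, and reads were counted by strand.

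SREBF2 was 250 and 242 CPM at 0 min, 236 and 222 CPM at 5 min, 244 and 239 CPM at 10 min, 239 and 224 CPM at 30 min and 223 and 215 CPM at 240 min. The 240 min libraries overlapped those of 5 min. From 0 min it fell by 11.1% (log2 fold change -0.17, standard error 0.050, edgeR adjusted p = 0.0108). The call was lost without the first 0 min replicate (adjusted p = 0.0755, edgeR) and without the second 240 min replicate (adjusted p = 0.0720, edgeR), and with limma on TPM (adjusted p = 0.13). In the test over the 5 times together the edgeR adjusted p of SREBF2 was 0.061. At 240 min SREBF2 was called lower against 10 min (edgeR adjusted p = 0.0303), but not against 5 min (0.348) or 30 min (0.223).

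At 240 against 0 min 5 of the 6 genes were called, 1 higher and 4 lower. Of all genes tested 41.0% were called, 20.6% higher and 20.4% lower, and the median log2 fold change of all genes was -0.003. A change at 240 min was therefore common among all genes, and the share of called members is read against that background. With libraries scaled by the ERCC spike-ins, 1059 genes were called and INSIG2 was the 1 member among them. Over the 5 times together 4 members were called (SREBF1, SCAP, INSIG2 and MBTPS1) with 38.3% of all genes, and limma on TPM called 3, without SCAP. Against 30, 10 and 5 min, 4, 5 and 4 members were called at 240 min, and 38.2%, 37.3% and 38.1% of all genes were called. These comparisons share the 240 min libraries.

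No member was called at 5, 10 or 30 min against 0 min, where 0, 0.137% and 0.332% of all genes were called by edgeR. At an unadjusted p under 0.05 the test gave 3 members at 5 min and 0 at 10 and 30 min, against 1976, 710 and 1125 of all genes. The 3 at 5 min were SREBF1 at -0.24 on the log2 scale (standard error 0.086), SCAP with -0.12 and SREBF2 with -0.11, each with an edgeR adjusted p of 0.26 or more. None of the alternatives, DESeq2 included, called a member at these times. Between early times, 0.260% of all genes were called at 10 against 5 min, 0.397% at 30 against 5 min and 0.00722% at 30 against 10 min, and again no member.

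**Figure D2:**
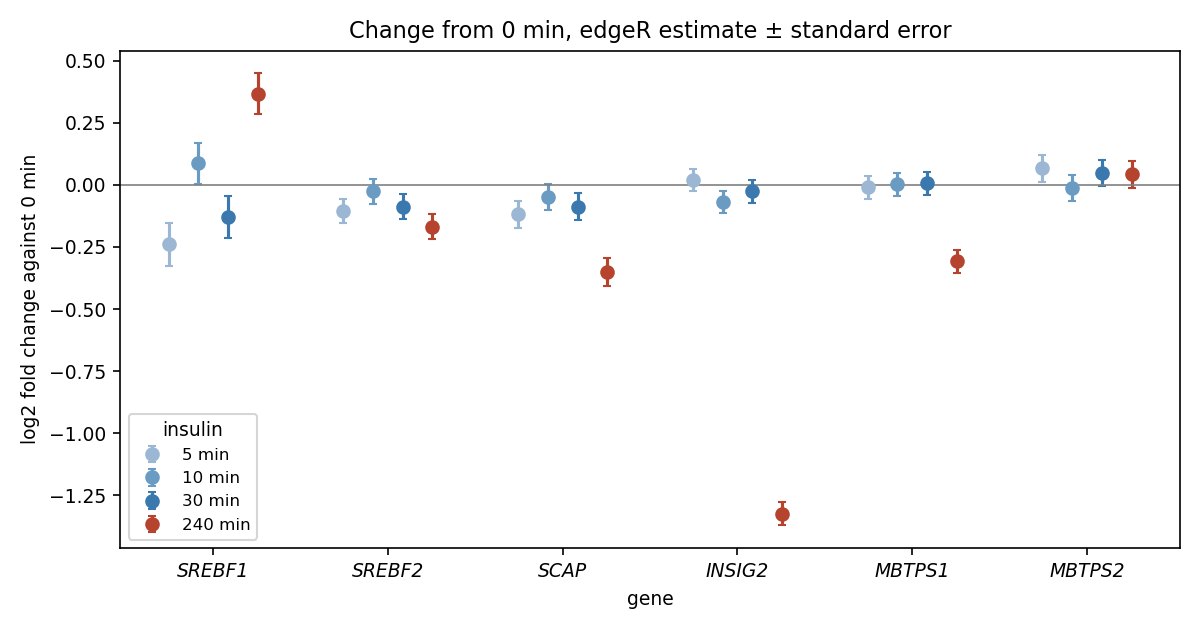
log2 fold change against 0 min (vertical axis) for each of the 6 genes (horizontal axis) at 5, 10, 30 and 240 min, with points for the edgeR estimate and bars for its standard error. At 240 min INSIG2 lies at -1.32 and the other 5 genes between -0.35 and 0.37, while all values up to 30 min lie between -0.24 and 0.09.

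Ordered by level, INSIG2, MBTPS1 and SCAP each had 240 min as the lowest time and SREBF1 had it as the highest. For these genes only the step between 240 min and its nearest neighbour passed the test: 10 to 240 min for SREBF1 (edgeR adjusted p = 0.0125), 240 to 5 min for SCAP (0.00266) and MBTPS1 (4.29e-05), and 240 to 10 min for INSIG2 (7.24e-13). All other neighbouring times, and every neighbouring pair of SREBF2 and MBTPS2, were not separated by the test. For SREBF2 the order from the lowest was 240, 5, 30, 10 and 0 min.

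Levels of different genes were compared per length, in TPM. At 0 min INSIG2 was highest with 186 ± 5.94 TPM (SD, n = 2), followed by MBTPS1 with 121 ± 5.63, SREBF2 with 115 ± 1.78, SCAP with 56.4 ± 1.52, MBTPS2 with 34.0 ± 0.62 and SREBF1 with 23.6 ± 1.85. At 240 min SREBF2 (105 ± 0.92 TPM) and MBTPS1 (100.2 ± 0.44 TPM) stood above INSIG2 (76.5 ± 2.47 TPM), and SREBF1 had reached 31.1 ± 0.97 TPM. SREBF1 thus had the lowest length-scaled level of the 6 at both ends of the series.

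Ratios within a library do not depend on how libraries were scaled to each other. INSIG2 per SCAP was 3.24 to 3.76 in the 8 libraries up to 30 min and 1.69 and 1.68 at 240 min. SREBF1 per SREBF2 was 0.178 to 0.231 up to 30 min and 0.288 and 0.305 at 240 min, and MBTPS1 per MBTPS2 was 3.32 to 3.71 and then 2.79 and 2.78. SCAP per SREBF2 changed least, from 0.477 to 0.506 up to 30 min to 0.419 and 0.446 at 240 min. In each of the 4 ratios the 240 min libraries lay outside the range of the others.

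**Figure D3:**
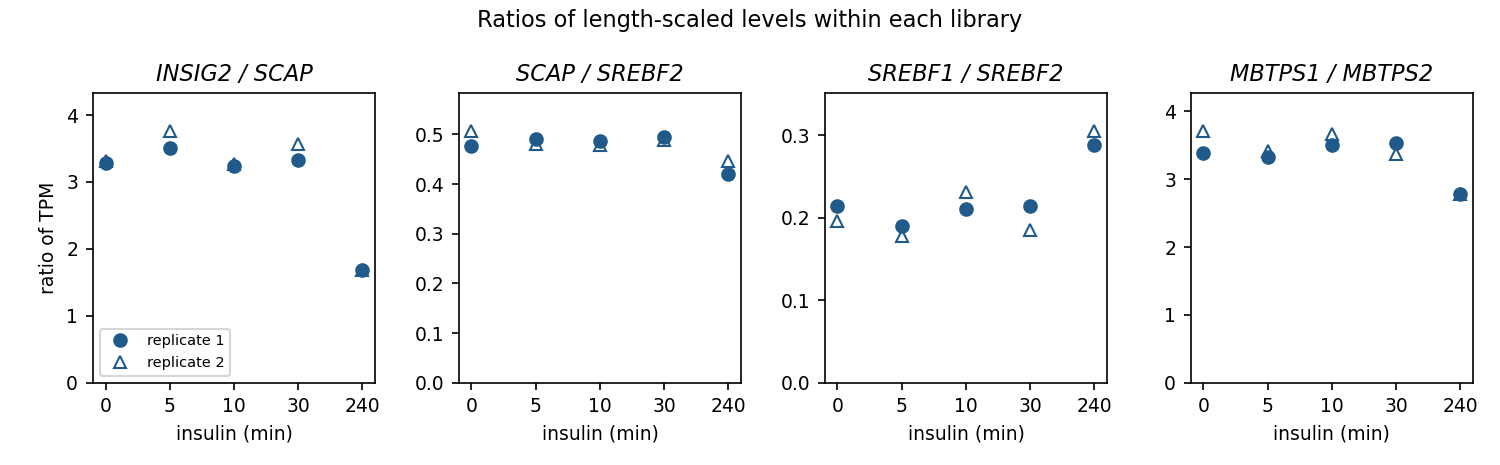
Ratio of TPM (vertical axes, each from 0) of 4 pairs of genes in each library at 0 to 240 min (horizontal axes, not to scale), with filled circles for replicate 1 and open triangles for replicate 2. INSIG2 per SCAP drops to 1.69 and 1.68 at 240 min, and SREBF1 per SREBF2 rises to 0.288 and 0.305.

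The genes most like each member were found by the smallest root mean square difference of mean-centred log2 CPM over the 10 libraries, among the 10387 genes that averaged 5 CPM or more. For SREBF1 they were FASN, which encodes fatty acid synthase, at 0.062, and SRM, which encodes spermidine synthase, at 0.067, where the spread of SREBF1 itself was 0.23. For INSIG2 they were PLEKHM3 (0.040) and KANK1 (0.070), against a spread of 0.52. PLEKHM3 and KANK1 had log2 fold changes of -1.34 and -1.41 at 240 min. FASN and SRM had 0.21 and 0.33 at 240 against 0 min, where SREBF1 had 0.37. The measure also takes in differences between replicates of the same time, so a small value need not mean an equal change with time. The nearest were SLC39A7 and GIT1 for SREBF2, BAG6 and CMTM8 for SCAP, USP9X and HUWE1 for MBTPS1 and CNOT2 and AKAP11 for MBTPS2. All of these values share the same libraries, and likeness over 10 points is a description.

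MIR33A and MIR33B lie in introns of SREBF2 and SREBF1. Both had 0 counts in every library. With 3 counts taken as an approximate upper limit for 0, this is 0.164 CPM in the shallowest library, for counting error only. Libraries of this kind do not capture mature miRNAs, so these zeros say nothing of the mature miRNAs.

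The counts of the 6 lists below stand against 20.6% of all genes called higher and 20.4% called lower at 240 against 0 min, 41.0% in all. For INSIG and SCAP control, the COPII coat, the other protease substrates and the promoter regulators, 6 of 12, 5 of 11, 2 of 7 and 5 of 9 genes were called, not far from that background, and their counts are no result about the list.

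Among proteins that control INSIG and SCAP, 2 of 12 genes tested rose and 4 fell at 240 against 0 min, and the list's median change was 0.05 on the log2 scale. C12orf49, which encodes the SPRING protein on which site-1 protease activity depends, was 73.4 and 83.2 CPM at 0 min and 114 and 116 CPM at 240 min, a rise of 1.46-fold (edgeR adjusted p = 3.63e-07). TRIM21 fell by 0.37 on the log2 scale (edgeR adjusted p = 0.0345). ERLIN1 and FAF2, which act in degradation at the endoplasmic reticulum, were also lower.

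Of the COPII coat, which carries SCAP and its cargo out of the endoplasmic reticulum, 1 of 11 genes rose and 4 fell at 240 min, with a median of -0.05. SAR1A, the GTPase that starts coat assembly, rose 1.12-fold, while the cargo-binding subunits SEC24B and SEC24D fell by 0.22 and 0.19 on the log2 scale, with edgeR adjusted p of 0.00902, 0.00184 and 0.00856. Of 7 genes for other membrane proteins cut by site-1 protease, site-2 protease or both, 0 rose and 2 fell. Both that fell encode CREB3-family transcription factors. CREB3L4 was 11.3 and 10.3 CPM at 0 min and 7.20 and 7.31 CPM at 240 min (log2 fold change -0.57, edgeR adjusted p = 0.000343). CREB3L3, a factor of liver and gut, fell by 0.38 (edgeR adjusted p = 0.00753), and ATF6, the stress sensor cut by both proteases, had a log2 fold change of -0.05 (edgeR adjusted p = 0.466).

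Nuclear partners and turnover factors were split, with 5 of 15 higher and 5 lower at 240 min and a median of -0.06. NFYB, a subunit of the NF-Y complex that binds the CCAAT box, rose 1.39-fold (edgeR adjusted p = 4.31e-05), NFYA rose 1.24-fold, and NFYC, the remaining subunit, fell by 0.15 on the log2 scale. LPIN1, which encodes the phosphatidate phosphatase lipin 1, rose 1.33-fold (edgeR adjusted p = 2.13e-05). The coactivators MED15 and CREBBP fell by 0.36 and 0.31 (edgeR adjusted p of 0.00116 and 0.000104).

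Of 9 regulators of the SREBF1 promoter 2 rose and 3 fell at 240 min, with a median of -0.18. RXRB, a partner of the liver X receptors, was 42.2 and 42.6 CPM at 0 min and 22.2 and 23.1 CPM at 240 min (log2 fold change -0.91, edgeR adjusted p = 3.52e-09), and NR1H2, the liver X receptor beta, fell by 0.65 (edgeR adjusted p = 3.97e-05). The repressors BHLHE41 and BHLHE40 rose by 1.29 and 0.49 on the log2 scale (edgeR adjusted p of 0.00426 and 0.00483), and BHLHE41 stayed under 1 CPM in these 4 libraries. The third to fall was MLXIPL, the glucose-responsive factor ChREBP. NR1H3, the liver X receptor alpha, had a log2 fold change of -0.23 that did not pass the test (edgeR adjusted p = 0.056).

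Of 27 SREBP target genes 18 rose and 0 fell at 240 against 0 min, and the list's median change was 0.21 on the log2 scale, where 20.6% of all genes rose. HMGCS1, the HMG-CoA synthase of cholesterol synthesis, was 991 and 802 CPM at 0 min and 2046 and 1899 CPM at 240 min, a rise of 1.14 on the log2 scale (edgeR adjusted p = 2.03e-09). IDI1, which isomerises isopentenyl diphosphate, rose 1.89-fold (edgeR adjusted p = 4.45e-09). Against 30 min 23 of the 27 rose and 0 fell, with a median of 0.41. There 38.2% of all genes were called in either direction, and the share by direction was not computed.

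At 5, 10 and 30 min no gene of the 6 lists was called. For the target genes the median log2 fold change was -0.10, 0.01 and -0.16 at these times, against 0.00008, -0.001 and -0.005 over all genes, and 9, 1 and 20 of the 27 had an unadjusted p under 0.05. Those unadjusted differences rest on a 0 min reference whose replicates differed in these genes, as given above.

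**Figure D4:**
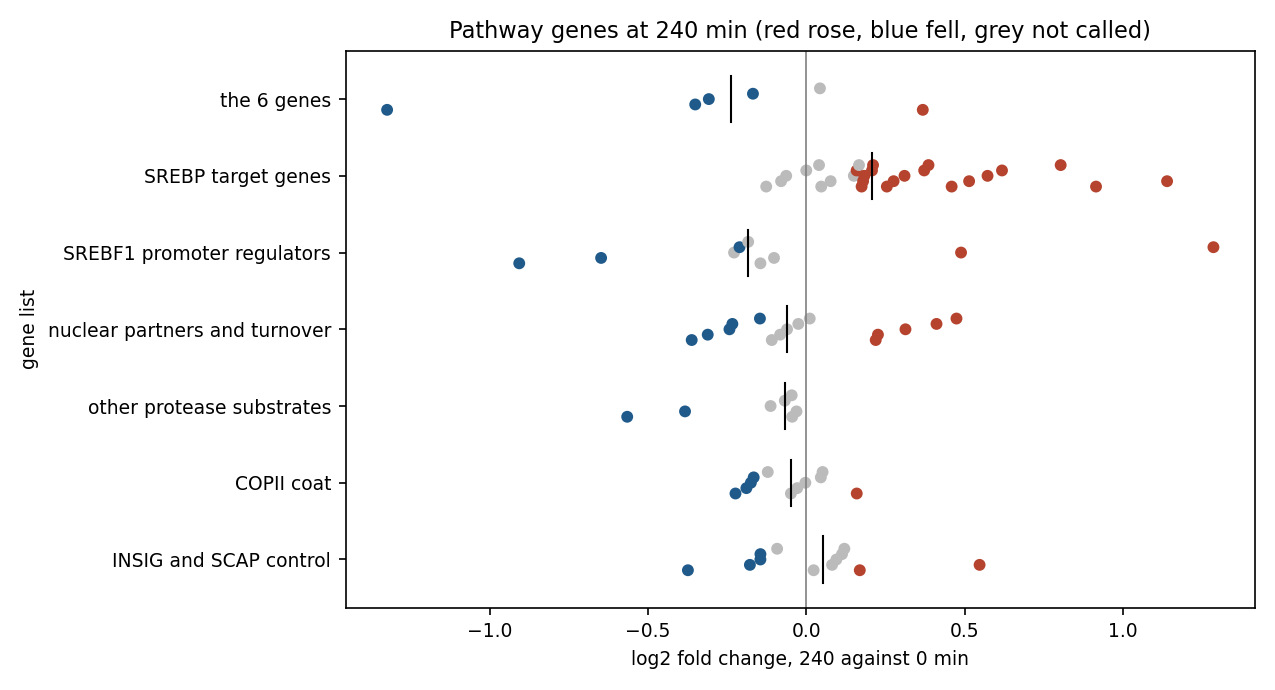
log2 fold change at 240 against 0 min (horizontal axis) of each tested gene of the 6 lists and of the 6 genes themselves (vertical axis), with red for called higher, blue for called lower, grey for not called and a bar for the median of each list. The target list holds 18 red and 0 blue points, the 6 genes hold 1 red and 4 blue.

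One IR peak lay within 5 kb of a member, inside SREBF1 (hg19 chr17:17714663-17740325, minus strand). Of the 26334 genes placed on a main chromosome 9.71% had a peak within 5 kb, so 1 of 6 is near the background. The peak covered chr17:17726808-17727171, 364 bases, with a score of 54, number 1265 of the 1971 peaks from the highest and under the median score of 79. With peaks above the median score only, 0 members had one. The list comes from 1 ChIP library, so the peak has no replicate.

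The peak lay on an internal start of SREBF1 and far from the gene's annotated start. GENCODE places the start of a shorter coding transcript at 17726932, 13393 bases downstream of the gene start, with 239 bases of the peak before that start and 125 from it onward. The first exon that begins there, with a start codon inside the peak, is that of SREBP-1c. The deposited annotation names the peak a promoter of SREBF1 and gives its distance to a start as -7337 bases, which from the centre of the peak leads to 17719652, the GENCODE start of a transcript with a retained intron.

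The 250 bases before the internal start, shown above and covered by the peak except for 11 bases, held 10 GC boxes on the strand of the gene and 1 NF-Y box on the other strand, and 82.0% of the bases were G or C. Between 1 and 250 bases before the annotated start of SREBF1 there were 3 GC boxes and 71.2% G or C. At least 10 GC boxes stood in 0.151% of RefSeq promoters. They stood in 0.355% of windows of the same length at the centres of all IR peaks (7 of 1971). The limit of 10 was the count at the internal start itself, overlapping boxes included, so these shares describe that window and test nothing. At least 1 GC box stood in 62.9% of the windows at peak centres. No exact match to the sterol regulatory element core was found before the internal start, and forms that differ from it by a base were not searched. The core stood in 1.07% of the windows at peak centres.

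**Figure D5:**
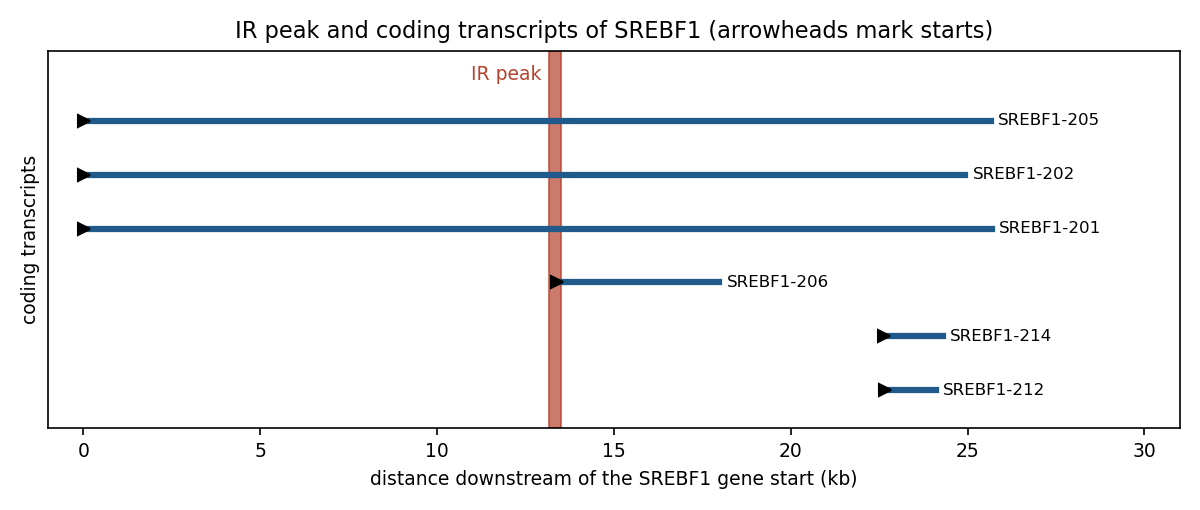
Coding transcripts of SREBF1 in GENCODE (blue lines, arrowheads at their starts, 1 per row) and the IR peak (red band) by distance downstream of the gene start in kb (horizontal axis, to scale). The peak spans the start of the fourth transcript from the top, 13393 bases downstream of the gene start.

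The other 5 genes had no peak near them. The nearest peak to SCAP was 37280 bases away, at ELP6, and the nearest to MBTPS1, SREBF2, INSIG2 and MBTPS2 were 245623, 384328, 1256617 and 2264515 bases away. Among the lists, and against 9.71% of all genes, a peak lay within 5 kb of 6 of 27 target genes (FASN and ACACA among them). The same held for 5 of 15 nuclear partners, 4 of 9 regulators of the SREBF1 promoter and 3 of 8 other substrates. It also held for 2 of 13 genes of INSIG and SCAP control and 1 of 11 COPII genes. The 9.71% includes genes that failed the filter on low counts, and a share among expressed genes was not computed. INSIG2, with the largest change in RNA, was among the genes with no peak, and SREBF1 was the member with a peak and a rise. With 1 member near a peak, of a score under the median and from 1 library, a link between peaks and RNA was not tested.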

How the data were processed

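RNA-seq counts were deposited by the authors as raw reads per gene from STAR 2.6.1d on hg19 and featureCounts 1.6.4, which the study's methods set to the reverse strand. The authors also deposited TPM and FPKM from StringTie (FPKM were not used here), and an IR peak list from BWA 0.7.17-r1188 and MACS2 2.2.7.1 with the peak score deposited per peak and genes named by HOMER. The extraction texts of the RNA and ChIP labels appear exchanged, so the study's methods were followed.

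Counts were tested with edgeR 4.0.16 in R 4.3.3 (TMM, filterByExpr by time, quasi-likelihood, all 10 libraries, no block), and an adjusted p under 0.05 was called. The 92 ERCC spike-in rows (1.59% to 2.36% of counts) stayed out of library sizes. CPM are counts after TMM scaling, and standard errors come from the F statistic. Replicate numbers were not used to pair the libraries. Their deviations correlated at -0.10 to 0.13 over 10 pairs of times, which does not settle whether a pairing exists. Members and lists were chosen with earlier results of these data known. Named are the 6 members, per list the 2 largest rises and falls called at 240 min, and the 2 genes most like each member, except that some of these genes are not reported here. ERLIN1, FAF2, ATF6, NFYA, NFYC, MLXIPL, NR1H3 and ACACA were named after their values were seen. Starts are from GENCODE on GRCh37 (hg19) and promoters from RefSeq on GRCh38.p14, which matched all 6 members. Alternatives were DESeq2 1.42.0, RLE, no filter, a replicate block, ERCC scaling, limma 3.58.1 on log2 TPM with 1 or 0.1 added, fewer libraries and other peak rules.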

Additional observations from a re-analysis of the deposited data

How the results depend on the processing

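Of 570 log2 fold changes of members recomputed under the alternatives, 533 kept their direction and side of the threshold. Scaling by ERCC spike-ins moved the members called at 240 min from 5 to 1, at 240 against 30 min from 4 to 1 and over the 5 times from 4 to 1, INSIG2 in each case, and it shifted the median log2 fold change of all genes at 240 min to -0.12. Under it the adjusted p at 240 min was 0.489 for SREBF1 (0.24), 0.395 for SREBF2 (-0.29), 0.106 for SCAP (-0.47) and 0.157 for MBTPS1 (-0.42), log2 fold changes in brackets, so their directions against 0 min were kept. The ERCC share ranged from 1.59% to 2.36%, and the cause was not tested. With peaks above the median score, the members with an IR peak went from 1 to 0.

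Reversed directions were all of uncalled values. With ERCC scaling they were -0.062 for INSIG2 and -0.019 for MBTPS2 at 5 min, -0.25 for SREBF1 and -0.32 for MBTPS1 at 10 min, -0.12 for MBTPS1 and -0.084 for MBTPS2 at 30 min, -0.077 for MBTPS2 at 240 min and 0.0065 for MBTPS2 at 240 against 30 min. With limma on TPM, in the 3 forms tried, MBTPS1 at 5 min was 0.0060 and MBTPS2 at 240 against 30 min was 0.010, and SREBF2 at 240 min had an adjusted p of 0.13. Over the 5 times limma called 3 members, without SCAP. With 1 library left out in turn, MBTPS1 was -0.048 to 0.032 at 5 min, -0.036 to 0.044 at 10 min and -0.032 to 0.048 at 30 min. MBTPS2 was -0.049 to 0.024 at 10 min and -0.046 to 0.028 at 240 against 30 min. SREBF1 was -0.017 to 0.18 at 10 min and -0.30 to 0.013 at 30 min. In the same way 4 to 5 members were called at 240 min and 4 to 5 over the 5 times.

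The replicate block left 5 members called at 240 min and gave 5, SREBF2 added, over the 5 times. Of 10 pairs of times 1 correlated over 0.1, which does not settle whether the numbers are a pairing. Counts of all genes called moved by over 1.5 times as follows. At 5 min they were 144 without a filter, 7 with limma without a filter, 2 with limma on log2(TPM + 1) and with ERCC scaling, 1 with DESeq2, the block and only the times compared, and 0 to 22 with 1 library left out. At 10 min they were 74 without a filter, 40 with only the times compared, 0, 3 and 4 with limma, and 9 to 24 with 1 library left out. At 30 min they were 160 without a filter, 4 with ERCC scaling, 2, 2 and 8 with limma, and 18 to 53 with 1 library left out. With ERCC scaling they were 1059 at 240 min, 917 at 240 against 30 min and 1279 over the 5 times, where limma gave 3094, 2882 and 2970 and leaving out 1 library 3419 to 5516. Time points have 2 libraries each, so small changes such as those of SREBF2 and MBTPS2 are near what the spread allows to be seen.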
